A study of Arabidopsis thaliana with 9 samples.

Results

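Cytochrome P450 genes of Arabidopsis thaliana shoots were examined in 3 genotypes on Affymetrix ATH1 arrays. The members were all probe sets that the platform annotation pairs with 1 gene whose symbol starts with CYP, 2 or 3 digits and a letter. This gave 23 of the 22746 probe sets without controls. The genotypes were a HAP5 triple mutant, labelled as a T-DNA knockout in Col-0, a constans mutant from a SAIL stock with no background given, and a wild type labelled Col-1, with 3 arrays each. Genotype and background can therefore not be told apart. All plants were cold-treated, then grown on soil for 10 days in days of 16 h light and 8 h dark at 22 °C. All above-ground tissue was taken 14 h after lights on. HAP5 proteins, also called NF-YC, are part of a complex that binds CCAAT boxes, and CONSTANS is a transcription factor of photoperiodic flowering. The labels do not name the HAP5 genes, and the transcripts of the mutated genes were not analysed here.

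Cytochromes P450 are haem enzymes that insert 1 oxygen atom into a small molecule, mostly with electrons from a P450 reductase. In plants they act in the synthesis and breakdown of hormones, sterols, pigments, lignin and defence compounds. CYP71B is a large plant subfamily that has spread by tandem duplication. Its best known member in Arabidopsis, PAD3, makes the defence compound camalexin and was not among the 23 members, which were found by gene symbol.

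Of the 23 members, 19 belonged to CYP71B and 1 each to CYP51G, CYP78A, CYP79A and CYP84A. The TAIR10.1 gene table holds 236 genes with a symbol of this form, and those other than the 23 were not analysed here, apart from CYP71B19 and CYP71B20. In that table, 17 members lay in 3 stretches of neighbouring genes. The long CYP71B stretch, from CYP71B16 (AT3G26150) to CYP71B37 (AT3G26330), held 25 genes, 18 of them P450 genes and 11 of them members. CYP71B5 (AT3G53280), CYP71B30P (AT3G53290) and CYP71B31 (AT3G53300) formed the second stretch. The third ran from CYP71B27 (AT1G13070) over CYP71B28 (AT1G13090) to CYP71B29 (AT1G13100). It also held CYP71B2, which was not a member. The other 6, CYP51G2, CYP71B6, CYP71B38, CYP78A9, CYP79A2 and CYP84A4, had no other member beside them.

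Levels are MAS5 signals, the linear brightness of a probe set, and every array of the deposited table has nearly the same trimmed mean. The signal depends on the probes as well as on the transcript. Bright and dim below therefore refer to signal, and do not rank genes by amount of transcript. Values below 1.03, the 10th percentile of all signals, were treated as 1.03, a floor below which values have no order. Testing was limited to probe sets that reached a signal of 18.6 in the log2-scale mean of any genotype. That level was met by 10 of the 23 members (43.5%), by 56.9% of the probe sets with 1 named gene and by 62.3% of all probe sets. All 10 were CYP71B genes. With 3 arrays per genotype the precision of every value below is limited, and the labels do not say whether they came from separately grown plants. In whole shoots, fewer cells of a type and less RNA per cell cannot be told apart.

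The arrays had median signals of 33.1 to 37.0 and correlated with each other at r of 0.934 to 0.968 across probe sets. The array control for 25S ribosomal RNA read 42.4, 16.9 and 15.9 in triple mutant plants, 56.5, 1152 and 1079 in constans plants, and 22.6, 108 and 418 in wild-type plants. Of 18 green shoot markers 4 had a named probe set, RCA, LHCB4.1, LHCB4.2 and LHCB4.3, with signals between 675 and 6641. Of 16 root markers 3 were named. The root hair expansins EXPA7 and EXPA18 read 0.632 to 14.99, and the beta-glucosidase PYK10 read 174 to 286. Of 10 flower and pollen markers only AMS was named, at 0.202 to 9.51.

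**Figure D1:**
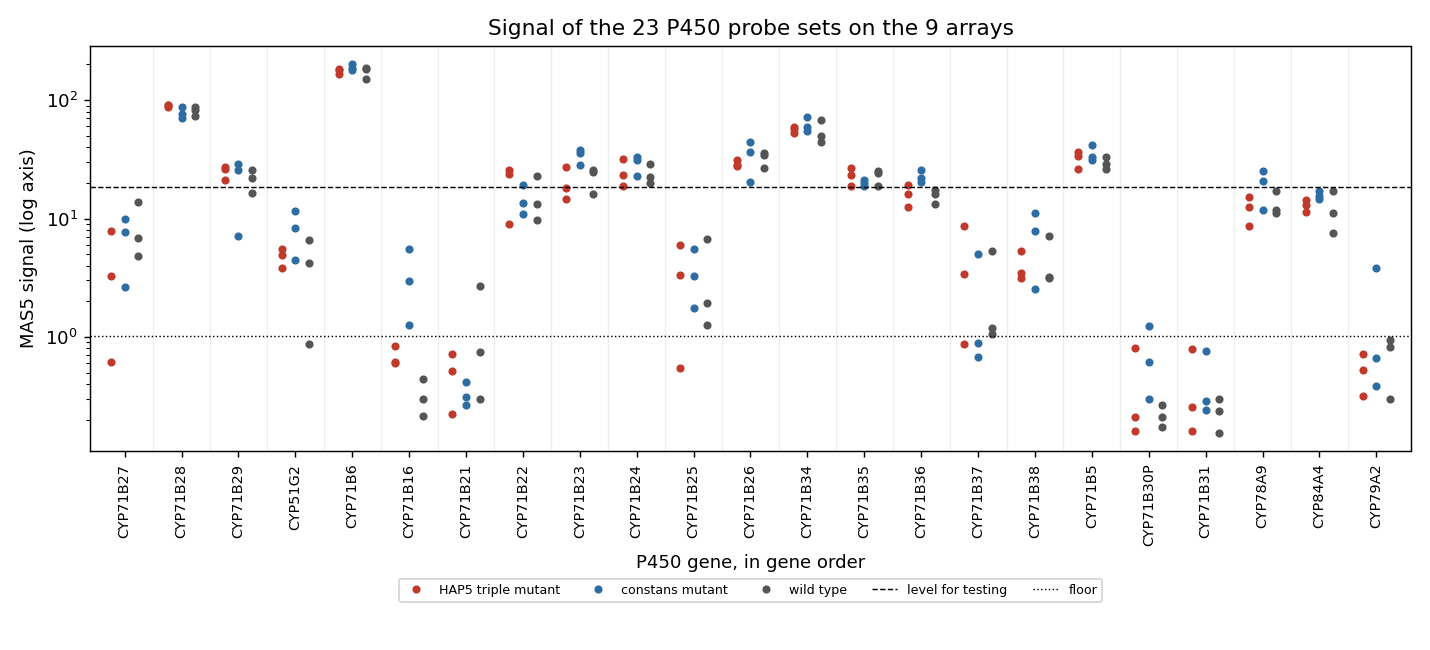
MAS5 signal (log axis) of the 23 P450 probe sets on each of the 9 arrays, with the genes in their order in the genome and the genotypes side by side. The dashed line is the level for testing (18.6) and the dotted line the floor (1.03). The points of CYP71B6 lie at 151 to 201, those of CYP71B31 lie below the floor on all 9 arrays.

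CYP71B6 (AT2G24180, probe set 266000_at), which converts indole-3-acetonitrile in tryptophan-derived defence metabolism, read 183, 181 and 166 in triple mutant plants, 201, 179.7 and 185 in constans plants, and 185, 184 and 151 in wild-type plants. The genotypes overlapped on all sides. The log2 change was 0.03 ± 0.11 (SE) in triple mutant plants and 0.13 ± 0.11 in constans plants, each against wild type, with limma adjusted p of 0.986 and 0.756. The 95% confidence intervals of the fold ran from 0.866 to 1.21 and from 0.922 to 1.29.

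In the third stretch, CYP71B28 (262780_at) read 90.9, 91.4 and 88.2 in triple mutant plants, 71.0, 87.9 and 75.8 in constans plants, and 74.0, 87.5 and 83.0 in wild-type plants. All triple mutant arrays lay above all others, by less than 1 signal unit over the highest constans array. Its mean was 1.11 times the wild-type level in the triple mutant (log2 change 0.15 ± 0.13 SE, limma adjusted p = 0.909), with an interval of 0.915 to 1.34. Against the constans mutant the triple mutant was at 1.16 times the level (0.956 to 1.40, adjusted p = 0.420).

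The neighbouring CYP71B29 (262827_at) read 26.4, 27.2 and 21.0 in triple mutant plants, 28.9, 7.15 and 25.8 in constans plants, and 16.6, 22.2 and 25.5 in wild-type plants. Constans 2 stood apart from the other 8 arrays, which lay between 16.6 and 28.9. The log2 change between the constans mutant and wild type was -0.27 ± 0.43 (SE, limma adjusted p = 0.880), and 0.37 without constans 2. That between the triple mutant and the constans mutant was 0.50 ± 0.43 (0.574), and -0.14 without constans 2. The pooled SD within genotypes was 0.68 on the log2 scale, the widest of the 10 tested members, against a median of 0.19 over all tested probe sets. The 25S signal was 1152 in constans 2, which read 7.15, and 1079 in constans 3, which read 25.8. Its part in the low value was not tested.

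CYP71B27, the remaining member of the third stretch, is a transcribed pseudogene in the gene table and read 0.613 to 13.9. CYP71B5 (251987_at) of the second stretch read 36.8, 34.0 and 26.0 in triple mutant plants, 41.5, 31.3 and 33.0 in constans plants, and 28.7, 26.4 and 33.4 in wild-type plants. The 3 genotypes overlapped, and the log2 changes against wild type were 0.12 ± 0.21 in triple mutant plants and 0.26 ± 0.21 in constans plants (SE, limma adjusted p of 0.961 and 0.722). Its neighbours were near or below the floor. CYP71B30P, whose name marks it as a pseudogene and which the gene table lists as protein coding, exceeded the floor on 1 array, and CYP71B31 on none.

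The long stretch held 6 of the 10 tested members. CYP71B23 (AT3G26210, 257623_at) read 27.5, 18.2 and 14.6 in triple mutant plants, 35.9, 28.4 and 37.6 in constans plants, and 24.5, 16.1 and 25.7 in wild-type plants. Every constans array lay above every array of the other genotypes, the closest pair being 28.4 in constans 2 and 27.5 in triple mutant 1. Its mean signal was 20.1 ± 6.64 in triple mutant plants, 34.0 ± 4.85 in constans plants and 22.1 ± 5.24 in wild type (SD, n = 3 each). The constans mutant was at 1.56 times the wild-type level, a log2 change of 0.64 ± 0.28 (SE, unadjusted p = 0.0382, limma adjusted p = 0.402), with a 95% interval of 1.03 to 2.37. Leaving out 1 array at a time gave changes of 0.43 to 0.77, the lowest without wild type 2. The triple mutant was at 0.575 times the constans level (0.379 to 0.873), a log2 change of -0.80 ± 0.28 (unadjusted p = 0.0129, limma adjusted p = 0.152), and -1.05 to -0.59 with 1 array left out. It ranked 1207th of 14173 probe sets by p in that comparison.

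CYP71B36 (AT3G26320, 256874_at) also read highest in the constans mutant. Its signals were 19.3, 12.6 and 16.3 in triple mutant plants, 25.5, 20.2 and 22.1 in constans plants, and 17.5, 13.4 and 16.2 in wild-type plants. The constans arrays again lay above the other 6. Its constans mean on the log2 scale, 22.5, alone reached the level for testing, against 15.8 in triple mutant plants and 15.6 in wild-type plants, so its high constans level decided that it was tested. The constans mutant was at 1.44 times the wild-type level (0.956 to 2.18, limma adjusted p = 0.518), and the triple mutant was at 0.703 times the constans level (0.465 to 1.06, 0.360). PYK10, the brightest root marker, was also highest in constans plants. It read 222, 174 and 184 in triple mutant plants, 249, 266 and 286 in constans plants, and 215, 193 and 211 in wild-type plants. The other root markers were dim. In triple mutant, constans and wild-type plants, EXPA7 had means of 5.72, 6.66 and 8.05 and EXPA18 of 3.67, 4.03 and 2.43. The named green shoot markers also had their highest mean in constans plants, but only LHCB4.2 stood apart there, at 808, 1094 and 915 in the same order. RCA (5627, 5962 and 5638) and LHCB4.1 (5178, 5322 and 5231) differed within their SD. LHCB4.3 was alike in both mutants (829, 838 and 680). The part of these markers in the P450 results was not tested. CYP71B23 and CYP71B36 were dim, near the level for testing, and neither difference passed. With the log2 25S signal as a covariate, the change between the constans mutant and wild type was 0.61 for CYP71B23 and 0.59 for CYP71B36. The limma adjusted p in that fit were 0.628 and 0.638. Between the triple mutant and the constans mutant, that fit gave changes of -0.73 and -0.63 (limma adjusted p of 0.765 and 0.822). Every constans array had a higher 25S signal than every triple mutant array, so that fit cannot fully separate 25S signal from genotype.

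The other 4 tested genes of the long stretch overlapped between all genotypes. CYP71B24 (257625_at) read 31.6, 23.4 and 18.7 in triple mutant plants, 33.3, 31.4 and 22.8 in constans plants, and 22.5, 19.9 and 28.8 in wild-type plants. CYP71B26 (257628_at) read 28.0, 31.0 and 28.5 in triple mutant plants, 20.5, 36.5 and 44.6 in constans plants, and 26.6, 34.6 and 35.7 in wild-type plants. The constans arrays of CYP71B26 spanned more than all others together, with the lowest value in constans 1, where the 25S signal was 56.5. The 25S signal was lower still in the triple mutant arrays (42.4, 16.9 and 15.9) and in wild type 1 (22.6), which read 26.6. The log2 change of CYP71B26 between the constans mutant and wild type was 0.01 ± 0.26 (SE), and -0.32 with the 25S covariate, with limma adjusted p of 0.995 and 0.794. The part of the 25S signal was not tested.

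CYP71B34 (256870_at) read 57.4, 59.4 and 52.6 in triple mutant plants, 54.9, 72.0 and 59.2 in constans plants, and 50.2, 44.1 and 67.3 in wild-type plants. CYP71B35 (256873_at), the next gene, read 27.0, 18.7 and 23.2 in triple mutant plants, 20.1, 18.9 and 21.2 in constans plants, and 18.7, 24.2 and 25.1 in wild-type plants. The genotypes overlapped in both. Against wild type in the constans mutant, the log2 change was 0.22 ± 0.17 for CYP71B34 and -0.16 ± 0.24 for CYP71B35 (SE, limma adjusted p of 0.721 and 0.873). CYP71B35 thus stood on the other side of 0 from both its neighbours, within its error.

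**Figure D2:**
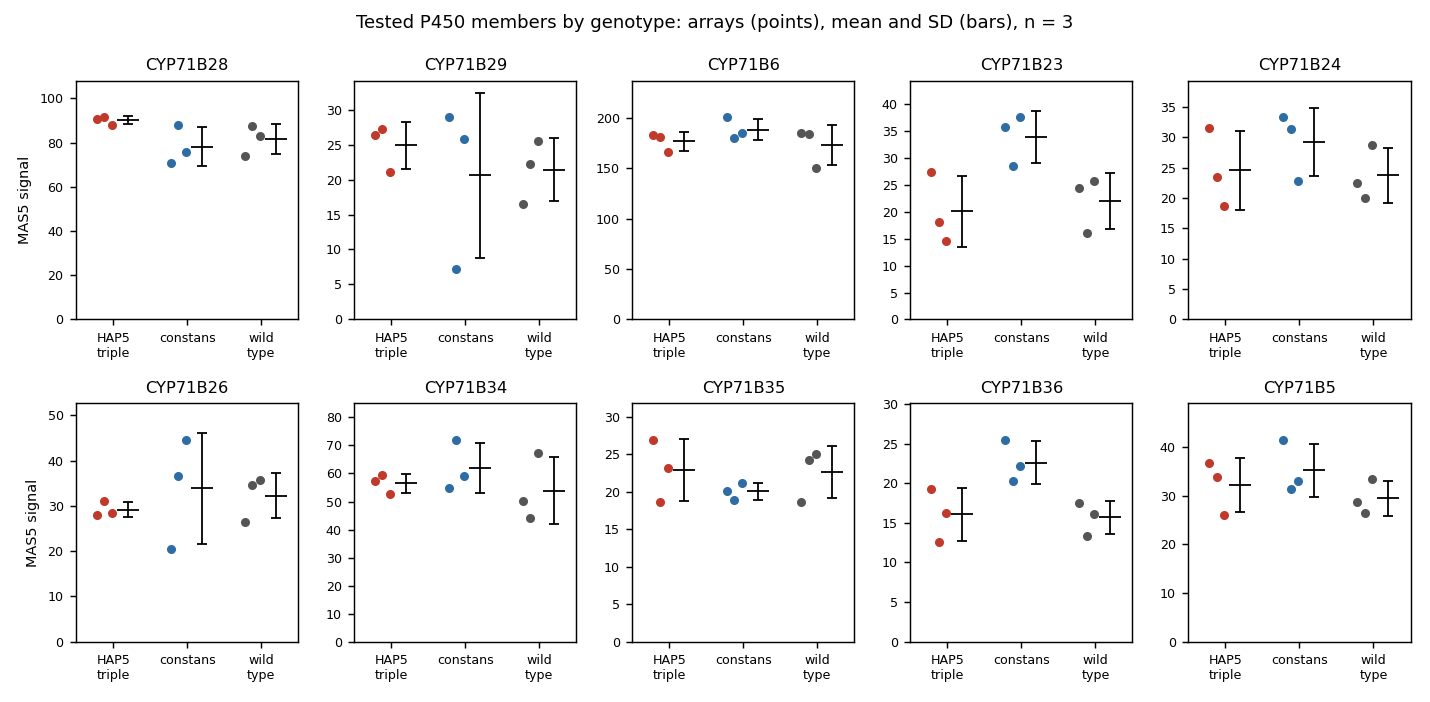
MAS5 signal of the 10 tested P450 members, 1 panel per gene with its own linear axis from 0. Points are arrays and the bars beside them the mean and SD of 3 arrays. In CYP71B23 and CYP71B36 the constans points lie above all others, in CYP71B29 constans 2 lies far below the other arrays at 7.15.

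The remaining 5 members of the long stretch were not bright enough to be tested. CYP71B22 (257636_at) came near, at 8.93, 23.9 and 25.5 in triple mutant plants, 10.9, 13.6 and 19.1 in constans plants, and 13.1, 22.8 and 9.79 in wild-type plants. Its arrays differed by more than 2-fold within the triple mutant and within wild type, so no difference between genotypes could be seen. CYP71B16 (257630_at) was below the floor on all triple mutant and wild-type arrays (at most 0.843 and 0.443) and read 5.53, 1.25 and 2.96 in the constans mutant. With dim probe sets also tested, its limma adjusted p was 0.383 against wild type. CYP71B25 and CYP71B37 read 0.545 to 6.67 and 0.677 to 8.62, and CYP71B21 exceeded the floor on 1 array.

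The members of other subfamilies and CYP71B38 were dim as well. CYP78A9, of a subfamily that sets organ size and known for its effect on fruit and seed growth, read 8.65, 12.4 and 15.3 in triple mutant plants, 20.6, 25.2 and 11.8 in constans plants, and 17.1, 11.9 and 11.2 in wild-type plants. Its constans mean of 18.3 on the log2 scale fell just under the level for testing, and the genotypes overlapped. CYP84A4, which makes a precursor of the arabidopyrones, a group of phenylalanine-derived compounds, read 11.5, 13.1 and 14.3 in triple mutant plants, 15.5, 17.0 and 14.6 in constans plants, and 17.2, 11.1 and 7.55 in wild-type plants. All constans arrays lay above all triple mutant arrays and within the wild-type range.

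CYP79A2, which turns phenylalanine into its aldoxime in benzylglucosinolate synthesis, exceeded the floor on 1 array, constans 2, at 3.81. CYP51G2, of the sterol demethylase family and a transcribed pseudogene in the gene table, read 0.866 to 11.6. CYP71B38 read 2.54 to 11.2. Among the 13 dim members 9 were at the floor on at least 1 array. With dim probe sets also tested, none of the 13 passed in any comparison, and the lowest limma adjusted p was 0.868 for triple mutant over wild type, 0.383 for constans over wild type and 0.252 for triple mutant over constans.

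Of probe sets next to the rule, 1 shared probe set matches both CYP71B19 and CYP71B20 of the long stretch, so their transcripts are not separated. It read 177, 178 and 150.1 in triple mutant plants, 176, 125 and 180.2 in constans plants, and 144, 175 and 146 in wild-type plants. CYP718, a P450 whose symbol has no letter after the number, read 0.474 to 1.501.

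The first comparison, triple mutant against wild type, asked whether P450 transcripts depended on the HAP5 genes. None of the 10 tested members passed a limma adjusted p under 0.05 (Benjamini-Hochberg over 14173 probe sets, lowest 0.909), where 0.0917% of all tested probe sets passed. At an unadjusted p under 0.05 the count was 0 of 10, against 6.51% of all. The arrays of the 2 genotypes did not overlap in 1 member, CYP71B28, against 14.1% of all. The log2 changes ran from -0.16 to 0.23 with a median of 0.03, against 0.01 over all tested probe sets. Of the 10, 8 were positive, against 51.4% of all. The members were read on the same arrays, so their signs are not independent, and several changed sign when 1 array was left out. The 95% interval lay within 2-fold in both directions for 9 members and within 1.5-fold for 5, so 2-fold changes were outside the interval for all but CYP71B29.

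The second, constans mutant against wild type, asked whether they depended on CONSTANS. None of the 10 passed (lowest limma adjusted p 0.402), where 1.4% of all probe sets did. At an unadjusted p under 0.05 the count was 1 of 10, CYP71B23, against 11.3% of all. The genotypes did not overlap in 2 members, CYP71B23 and CYP71B36, against 14.4% of all. CYP71B36 was among the 10 only through its constans level, so these counts and the median are descriptions that its selection touches. The log2 changes ran from -0.27 to 0.64, and their median was 0.17, against -0.00203 over all tested probe sets. Of the 10, 7 were positive, against 49.6% of all, and here too the signs are not independent. Of the 6 members in the long stretch, CYP71B36 among them, 5 were positive, with a median of 0.26. Both tested members of the third stretch were negative, with a median of -0.17, but neither sign held when 1 array was left out. CYP71B28 was at -0.06 ± 0.13 (SE, limma adjusted p = 0.914), and at 0.0049 without constans 1. CYP71B29 was at -0.27 ± 0.43, and at 0.37 without constans 2. The median of the 10 was 0.41 without the 3 arrays whose 25S signal exceeded 400, where 1 constans array remained. The interval lay within 2-fold for 7 members, and for 3 within 1.5-fold.

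The mutants share the wild-type arrays in the comparisons above, so they were also compared with each other. None of the 10 passed between the triple mutant and the constans mutant (lowest limma adjusted p 0.152), where 3.38% of all probe sets did. At an unadjusted p under 0.05 the count was 1 of 10, again CYP71B23, against 17.7% of all. The genotypes did not overlap in 3 members, against 22.6% of all, with CYP71B28 higher and CYP71B23 and CYP71B36 lower in the triple mutant. The median log2 change was -0.13. CYP71B36 was again among the 10 only through its constans level, so its selection touches these counts and this median too. With arrays weighted by quality, where 1192 probe sets passed instead of 479, CYP71B23 passed at an adjusted p of 0.0471, and over the 20 alternatives its adjusted p ran up to 0.765. A test of any difference among the 3 genotypes (limma moderated F) called 0 of 10 (lowest adjusted p 0.285, CYP71B23), where 2.43% of all were called. At an unadjusted p under 0.05 it gave 1 of 10, against 14.1% of all.

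**Figure D3:**
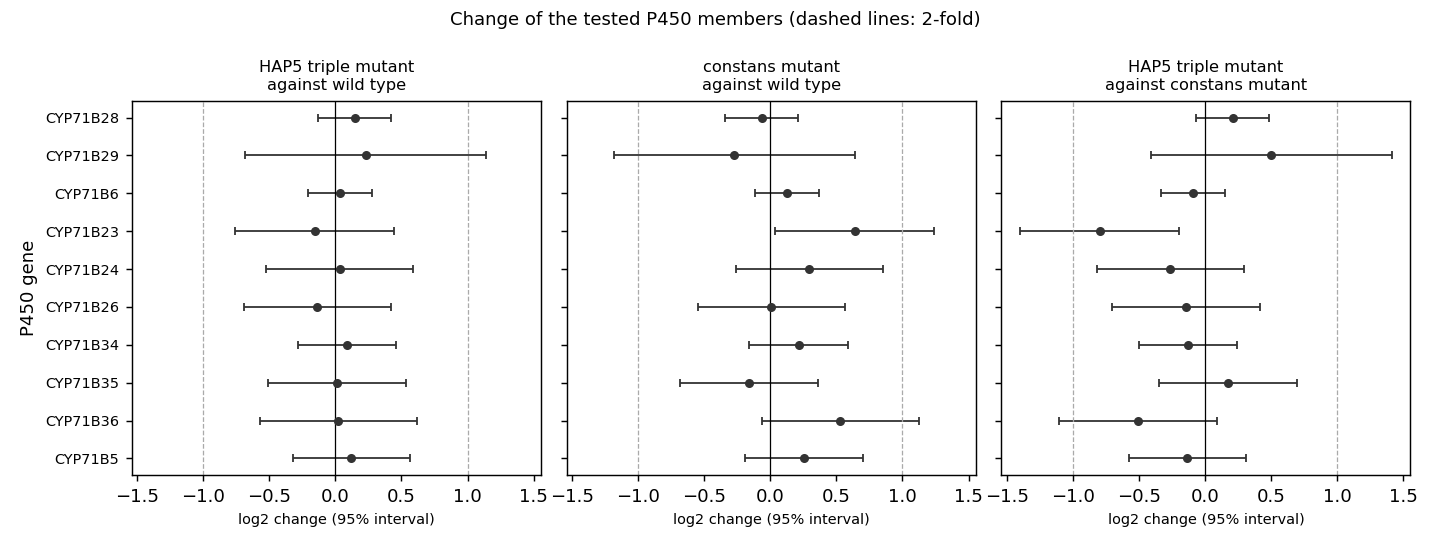
Log2 change and 95% confidence interval (limma) of the 10 tested P450 members in the 3 comparisons, tested over 14173 probe sets. The dashed lines mark 2-fold. Before adjustment, the intervals of CYP71B23 exclude 0 in both comparisons that hold constans plants, and those of CYP71B29 are the widest.

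Few other genes of P450 pathways were named. Of 26 genes of glucosinolate and camalexin synthesis 2 had a named probe set, and of 18 genes of phenylpropanoid and flavonoid synthesis 1. None was named of 18 P450 reductases and cytochromes b5, of 14 brassinosteroid genes or of 16 gibberellin and abscisic acid genes. A list of 40 P450 genes known by other names was left out, so its named probe sets were not counted. UGT74B1, which glucosylates the core of glucosinolates, read 278, 297 and 290.1 in triple mutant plants, 189.8, 196 and 197 in constans plants, and 247, 249.8 and 329 in wild-type plants. Its constans arrays lay below the other 6. BCAT4, which starts the elongation of methionine for methionine-derived glucosinolates, read 1078, 1054 and 904 in triple mutant plants, 745, 657 and 626 in constans plants, and 870, 991 and 849 in wild-type plants. Here too the constans arrays were the lowest.

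Both genes were higher in the triple mutant than in the constans mutant, UGT74B1 by 1.48-fold (log2 change 0.57 ± 0.12 SE, limma adjusted p = 0.0155) and BCAT4 by 1.497-fold (0.58 ± 0.11, adjusted p = 0.00837). Against wild type in the constans mutant, their log2 changes of -0.49 ± 0.12 and -0.42 ± 0.11 did not pass (adjusted p of 0.0585 and 0.0879). Every constans array had a higher 25S signal (56.5, 1152 and 1079) than every triple mutant array (42.4, 16.9 and 15.9). Genotype and 25S signal can therefore not be fully told apart between the mutants. With the 25S signal as a covariate the change between the mutants was 0.48 for BCAT4, which no longer passed (adjusted p = 0.278). It was 0.74 for UGT74B1, which did pass (0.0430). Leaving out triple mutant 2 or constans 3 ended both calls, with changes of 0.55 and 0.58 for UGT74B1 (adjusted p of 0.0825 and 0.0551) and of 0.55 and 0.53 for BCAT4 (0.0582 and 0.0520). Leaving out triple mutant 3 ended that of UGT74B1 (change 0.57, adjusted p = 0.0557). HCT, an acyltransferase of lignin synthesis, read 527, 521 and 526 in the triple mutant, 457, 373 and 406 in constans plants, and 512, 494 and 402 in wild-type plants. Constans and wild-type arrays overlapped, with a log2 change of -0.19 ± 0.11 (SE, limma adjusted p = 0.592). Between the mutants the log2 change of 0.35 ± 0.11 did not pass (limma adjusted p = 0.110). That change passed with array weights (0.36, adjusted p = 0.0326) and without constans 1 (0.43, 0.0447).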

How the data were processed

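Total RNA was labelled by the one-cycle biotin protocol, per the labels. The authors deposited MAS5 signal intensity values, on a linear scale; by the values, every array has nearly the same trimmed mean. MAS5 and GCOS are named, without versions, per the submitters' processing notes; a genome build is not given in the sources used here. The table covers 22810 probe sets, with detection calls absent. The 64 controls were left out of tests. Names came from the platform annotation, locus tags and gene order from the TAIR10.1 gene table.

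Signals below the pooled 10th percentile (1.03) were raised to it before taking log2. Probe sets whose log2 mean in any genotype reached the 40th percentile of such means (18.6) were tested, 14173 in all. One limma 3.58.1 model (R 4.3.3) held all 9 arrays, with an intensity trend and 6 residual degrees of freedom, and p-values were adjusted by Benjamini-Hochberg over all tested probe sets within a comparison. Confidence intervals are unadjusted limma intervals. The fit was tested on simulated data. Since the labels do not tell whether arrays are separate plantings, p-values reflect the spread among these arrays alone, which may be technical. There are no reads, so no sequencing depth.

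The members and gene lists were chosen with earlier results of these data known. The genes to name were all members called, the 8 with the largest change each way per comparison, the 12 brightest, and up to 4 per list. The remaining members are given so that all 23 are accounted for. LCR, a P450 synonym in the lists, names another gene in the annotation, and its whole list of 40 other names was left out. Protein and promoter sequences were not used here. The alternatives for UGT74B1, BCAT4 and HCT were chosen after seeing the data. Alternatives were other normalizations, floors, filters and variance models, the replicate block, the 25S signal, and leaving out arrays.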

Additional observations from a re-analysis of the deposited data

How the results depend on the processing

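No P450 member passed in any comparison under the alternatives tried, except CYP71B23 between the triple mutant and the constans mutant with array weights, where the count was 1. The median change of the members between the constans mutant and wild type was 0.41 without the 3 arrays of high 25S signal. In that setting, here and below, only 1 constans array remained. Of 609 alternative log2 changes of tested members, 573 kept direction and side of the threshold, 1 passed and 35 changed sign, none of the 35 with a call. With the 25S covariate, CYP71B26 was at -0.32 (constans against wild type), 0.53 (triple mutant against constans) and 0.21 (triple mutant against wild type), CYP71B34 at 0.18 (triple mutant against constans), and CYP71B36 and CYP71B6 at -0.042 and -0.055 (triple mutant against wild type). Without the 3 arrays of high 25S signal, CYP71B26 was at -0.56 and 0.50 and CYP71B29 at 0.59 and -0.23 (constans against wild type, then triple mutant against constans), CYP71B34 at 0.039 (triple mutant against constans) and CYP71B6 at -0.063 (triple mutant against wild type). With array weights, CYP71B35, CYP71B36 and CYP71B6 were at -0.037, -0.17 and -0.00096 (triple mutant against wild type). With quantile normalization or median centring CYP71B26 was at -0.032 (constans against wild type). The causes were not tested, and between the mutants 25S signal and genotype cannot be fully told apart.

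Leaving out 1 array at a time gave changes against wild type in the triple mutant of -0.41 to 0.048 for CYP71B23, -0.17 to 0.21 for CYP71B24, -0.045 to 0.26 for CYP71B34, -0.12 to 0.15 for CYP71B35, -0.12 to 0.19 for CYP71B36 and -0.063 to 0.087 for CYP71B6. In the constans mutant against wild type they were -0.22 to 0.33 for CYP71B26, -0.15 to 0.0049 for CYP71B28 and -0.64 to 0.37 for CYP71B29. Between the mutants they were -0.47 to 0.089 for CYP71B26, -0.14 to 0.86 for CYP71B29 and -0.24 to 0.013 for CYP71B5.

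Of 9 pairs of same-numbered arrays, 3 deviated together at r above 0.1 (range -0.038 to 0.23), and 9 of 18 best matches were with the own number, so a pairing was not shown and is not excluded. With the replicate block the count of members stayed 0, and the calls over all probe sets were 20, 234 and 661, against 13, 198 and 479 without it. UGT74B1 and BCAT4 then passed for constans over wild type (adjusted p of 0.0436 and 0.0448). There UGT74B1 also passed with the stricter filter (0.0474) and the 25S covariate (0.0325), and BCAT4 with array weights (0.0430) and without constans 1 (0.0492). Over the other alternatives that keep the call rule, the calls over all probe sets ran from 4 to 99 (triple mutant over wild type), 37 to 275 (constans over wild type) and 132 to 1192 (triple mutant over constans). The calls of UGT74B1 and BCAT4 between the mutants also ended with no filter on dim probe sets (adjusted p of 0.0696 and 0.0533, with the changes as before, 0.57 and 0.58) and that of UGT74B1 with no trend (0.0576). With the 3 arrays of high 25S signal left out, where only 1 constans array remained, the change of BCAT4 between the mutants was 0.44. The dim signals of 13 members limit what could be seen.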
